A study of Arabidopsis thaliana with 26 samples.

Results

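HYH (AT3G17609) encodes a transcription factor of the bZIP class, and its transcript was followed here in Arabidopsis thaliana leaves over 6 times. It was measured by the 1 probe set that the platform annotation assigns to it, 258349_at, out of 22810 probe sets on the Affymetrix ATH1 array. That probe set is annotated to no other gene, and no second probe set is annotated to HYH. The series studies signalling from mature to developing leaves under different irradiance and CO2, and the arrays given here are those of plants at ambient CO2 and ambient light. All groups carry that same treatment and the same Col-0 background (stock N1092). Plants grew on Humax compost in a growth room with a 10 h light period at 20 °C and 50% humidity. Developing leaves at insertions 19 to 21 were collected after 2, 4, 12, 24, 48 and 96 h of treatment, with 4 arrays at each time. Mature leaves of plants treated for 24 h gave 2 further arrays, which makes 26 in all. Replicates are numbered, with no word on whether each was a separate plant or pool, so p-values measure the spread between these arrays, which may be technical. The clock time of hour 0 is not given in the sources used here, and 24, 48 and 96 h lie whole days apart.

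HYH (HY5 HOMOLOG) is the closest relative of HY5, the bZIP factor that promotes light-dependent seedling development. Both proteins act downstream of the phytochrome, cryptochrome and UV-B photoreceptors, bind ACGT-containing promoter elements such as the G-box, and raise the transcription of flavonoid genes. In darkness the COP1/SPA ubiquitin ligase marks both for degradation, and in light they accumulate. The array measures the transcript and gives no protein level.

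Values are MAS5 intensities on a linear scale, which the authors scaled so that the 2% trimmed mean of every array lay between 100.008 and 100.011. The median intensity of an array was between 40.7 and 47.0. No 2 arrays were identical. Differences are given as log2(intensity + 4.35), the pseudocount being 10% of the median of all values. That scale understates the fold change of dim probe sets. The mean log2 level of HYH over all arrays was 5.91, the 56.0th percentile of the 22746 probe sets that are not Affymetrix controls. It lay above the minimum of 4.99 that left 13648 probe sets for testing. That minimum applies to the mean over all arrays, and the HYH means at 4 h (4.42) and 12 h (4.62) lay below it. Without detection calls, the changes among 2, 4 and 12 h therefore rest on a dim signal. The leaf markers RCA, the activase of Rubisco, and LHCB4.1, a light-harvesting protein of photosystem II, had mean log2 levels from 11.30 to 12.01 in developing leaves, and both were at 12.47 in mature leaves. PYK10, a root marker, lay below the minimum.

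HYH transcript was low at 2, 4 and 12 h and high at 24, 48 and 96 h. The high times share a time of day at which none of the low times was sampled. In this difference, hours of treatment and time of day therefore cannot be told apart. At 2 h the 4 arrays read 40.4, 34.8, 30.7 and 31.2, a mean of 34.3 ± 4.46 (SD, n = 4). At 4 h they read 20.8, 22.2, 10.7 and 16.5, with a mean of 17.6 ± 5.18 (SD, n = 4). At 12 h they read 18.6, 18.5, 17.7 and 26.8, with a mean of 20.4 ± 4.28 (SD, n = 4). Every array at 4 and 12 h was therefore below every array at 2 h, and all 12 early arrays were below 40.7, the lowest median intensity of any array.

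At 24 h the HYH intensities were 124, 111, 108 and 91.5, a mean of 109 ± 13.4 (SD, n = 4). At 48 h they were 136, 144, 115 and 131, with a mean of 132 ± 12.2 (SD, n = 4). At 96 h they were 176, 116, 129 and 126, with a mean of 137 ± 26.8 (SD, n = 4). The lowest of these 12 arrays, at 91.5, was above the highest of the 12 earlier ones, at 40.4. Replicate 1 at 96 h stood above its group, and the other 3 arrays of that time lay within the range of the 48 h arrays. The 2 mature arrays read 55.2 and 79.7 (67.5 ± 17.4, SD, n = 2), between the early and the late developing arrays and overlapping neither.

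**Figure D1:**
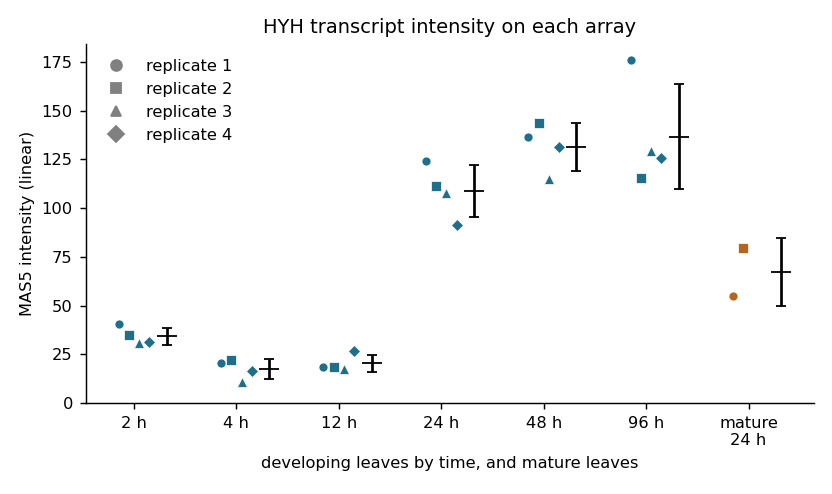
MAS5 intensity of HYH (linear scale) on each array, by hours of treatment in developing leaves and in mature leaves at 24 h. Each point is 1 array and each bar a group mean with its SD. The 12 arrays from 2 to 12 h lie between 10.7 and 40.4, the 12 from 24 to 96 h between 91.5 and 176, and the 2 mature arrays between them.

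Among developing leaves the spread between arrays was widest, relative to the mean, at the times when the signal was dimmest. The coefficient of variation of HYH intensity was 29.5% at 4 h and 21.0% at 12 h. It was 13.0% for the 2 h arrays, and 12.3%, 9.31% and 19.6% for those of 24, 48 and 96 h. The highest of the 4 h arrays was 2.08 times the lowest, and at 48 h this ratio was 1.25. Across the 6 times, replicate 3 was below its group mean at 6 of 6 times, by 0.17 on the log2 scale on average (mean deviation -0.17). Replicate 1 was above its group mean at 5 of 6 times (mean deviation 0.16). These deviations are small beside the difference between the early and late times.

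In a limma fit over all 7 groups, the F-test across the 6 times gave F = 119 for HYH (adjusted p = 6.60e-15, Benjamini-Hochberg over 13648 probe sets). This test called 62.4% of all probe sets. By the size of F, HYH ranked 78th, and 0.572% of probe sets had an F as large. The mean log2 level spanned 2.70 from the lowest time, 4 h, to the highest, 96 h, and 0.887% of probe sets spanned as much. The intensity ratio between these group means was 7.78, and the fold on the log2(intensity + 4.35) scale was 6.51.

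HYH fell between 2 and 4 h and stayed low at 12 h. The change from 2 to 4 h was -0.85 ± 0.16 on the log2 scale (SE; 95% interval -1.18 to -0.51), 1.80-fold lower at 4 h (limma adjusted p = 0.00266). Few probe sets moved in that interval: 2.34% of those tested were called in either direction and 0.996% were called lower. HYH had the 26th most negative change of the 13648. The 12 h level was also below that at 2 h, by 1.57-fold (-0.65 ± 0.16, limma adjusted p = 0.00236), but here 39.2% of probe sets were called, 18.6% lower, and HYH ranked 1111th among the falls. Between 4 and 12 h the change was 0.20 (95% interval -0.14 to 0.53, limma adjusted p = 0.370), and the arrays of both times overlapped. That comparison also called 39.2% of probe sets. Without replicate 3 at 4 h, the dimmest HYH array, the change from 2 to 4 h was -0.68 (limma adjusted p = 0.0194). With a larger pseudocount, 50% of the median, the changes from 2 h were -0.52 at 4 h and -0.41 at 12 h, and both were still called.

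HYH rose between 12 and 24 h. The difference was 2.20 ± 0.16 on the log2 scale (SE; 95% interval 1.86 to 2.53), or 4.59-fold (limma adjusted p = 2.76e-11). In this comparison 38.4% of probe sets were called and 17.6% were called higher, and HYH had the 72nd most positive change. Against 2 h, HYH was 2.92-fold higher at 24 h, 3.52-fold higher at 48 h and 3.62-fold higher at 96 h (limma adjusted p = 1.99e-07, 1.03e-08 and 1.54e-09). The changes were 1.55 (95% interval 1.21 to 1.89), 1.82 (1.48 to 2.15) and 1.86 (1.52 to 2.19). These comparisons called 20.9%, 23.9% and 41.8% of probe sets, of all tested 10.1%, 11.2% and 19.1% higher, and HYH ranked 19th, 15th and 76th among the rises. All 3 share the 2 h arrays, so they are not independent of one another.

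Among 24, 48 and 96 h, which share a time of day, no change of HYH passed the test. The 48 h level exceeded that at 24 h by 0.27 (95% interval -0.07 to 0.61, limma adjusted p = 0.481). The 96 h level exceeded that at 48 h by 0.04 (-0.30 to 0.38, limma adjusted p = 0.940), a value whose sign turned without replicate 1 at 96 h (-0.084) and without replicate 3 at 48 h (-0.022). Over the whole interval from 24 to 96 h the change was 0.31 (-0.03 to 0.65, limma adjusted p = 0.212). In each of these 3 comparisons the arrays overlapped. They called 0.315%, 3.44% and 17.2% of probe sets. The first count, 43 probe sets, was 0 without replicate 1 at 24 h and 0 without replicate 3 at 48 h, 4 without replicate 4 and 8 without replicate 1 at 48 h, 12 without replicate 3 at 24 h, and 104 without replicate 2 at 24 h. The second, 470 probe sets, was between 216 and 259 when replicate 3 or 4 at 48 h or replicate 1 or 4 at 96 h was left out.

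In mature leaves at 24 h HYH was lower than in developing leaves of the same time. The difference was -0.67 ± 0.20 on the log2 scale (SE; 95% interval -1.08 to -0.26), 1.59-fold lower in mature leaves (limma adjusted p = 0.00532), and the 2 mature arrays lay below all 4 developing ones. This comparison called 61.7% of all probe sets and called 37.6% lower, and HYH ranked 3259th among the falls. The call rests on 2 arrays: without mature replicate 1 the difference was -0.42 (limma adjusted p = 0.166), and without mature replicate 2 it was -0.92 (limma adjusted p = 0.00322). Against the early developing leaves the mature level was higher, by 1.84-fold over 2 h (limma adjusted p = 3.83e-04), 3.31-fold over 4 h (limma adjusted p = 2.20e-08) and 2.89-fold over 12 h (limma adjusted p = 2.20e-07). The comparisons with 2, 4 and 12 h called 66.5%, 67% and 63.1% of probe sets. RCA and LHCB4.1 were higher in mature than in developing leaves at 24 h (0.47, adjusted p = 0.0291, and 0.46, adjusted p = 0.00906, limma), as was the phloem sugar transporter SWEET11 (2.50 ± 0.21, limma adjusted p = 5.22e-11). The guard cell regulator FMA was not called over the 6 times (limma adjusted p = 0.876) or between the tissues. In whole leaves, fewer cells of a type and less RNA per cell cannot be told apart, and the part of cell composition in the HYH difference was not tested.

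From highest to lowest the order of the HYH means was 96 h, 48 h, 24 h, mature leaves, 2 h, 12 h and 4 h. Of the neighbours in that order, 96 and 48 h, 48 and 24 h, and 12 and 4 h did not differ beyond their spread. The steps from 24 h to mature leaves, from mature leaves to 2 h and from 2 to 12 h passed the test. Of the 21 pairs of the 7 groups, 17 passed, against between 0.315% and 67% of probe sets called in each pair. In 17 pairs the HYH arrays did not overlap, a description only, since the share of all probe sets without overlap was not computed. The pairs not given above were those of 24, 48 and 96 h with 4 h, which called 29%, 31.6% and 45.8%, those of 48 and 96 h with 12 h, which called 39.4% and 43.5%, and those of mature leaves with 48 and 96 h, which called 59.8% and 53.7%. HYH was called in all 7, and was lower in mature leaves than at 48 and 96 h by 1.91-fold and 1.97-fold (limma adjusted p = 2.38e-04 and 1.86e-04). Each pair was adjusted over probe sets, not over the 21 pairs.

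**Figure D2:**
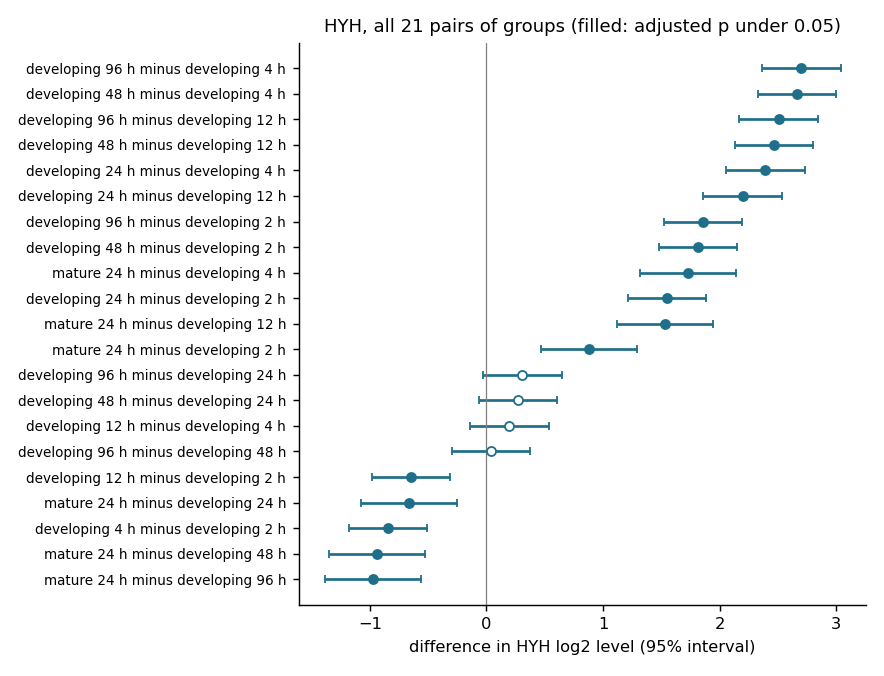
Difference in HYH log2 level for each of the 21 pairs of groups, with its 95% interval from the limma fit. Filled points passed an adjusted p under 0.05. The 4 open points are 12 against 4 h and the 3 pairs among 24, 48 and 96 h, and the largest difference is 2.70 between 96 and 4 h.

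The ratio of the 3′ to the 5′ actin control probe sets, a measure of RNA integrity and labelling, also varied with time. Its log2 mean was 2.66 ± 0.15 for the 2 h arrays and 2.68 ± 0.11 for those of 4 h (SD, n = 4). It was 2.09 ± 0.37 for 12 h, 2.14 ± 0.49 for 24 h, 2.00 ± 0.50 for 48 h and 1.53 ± 0.50 for 96 h (SD, n = 4), and 1.60 ± 0.56 for mature leaves (SD, n = 2). The 12 and 24 h arrays, between which HYH changed most from one time to the next, had overlapping actin ratios. The ratios at 2 h (2.43 to 2.77) and 4 h (2.55 to 2.81) all lay above those at 96 h (1.22 to 2.28). HYH differed most between 4 and 96 h, by 2.70. When the actin ratio was added to the fit as a covariate, the HYH change from 12 to 24 h was 2.20. In that fit the change from 2 to 4 h was -0.84, that from 2 to 96 h was 1.80 and the mature difference was -0.70. Each of these was still called. That fit rests on the spread of the ratio within groups. Where the ratio itself differs between times, as between 4 and 96 h, its part and that of time cannot be told apart. RCA and LHCB4.1 rose from 12 to 24 h as well (0.67, adjusted p = 8.36e-04, and 0.66, adjusted p = 8.55e-05, limma), a smaller change than that of HYH, and their part in the result was not tested.

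**Figure D3:**
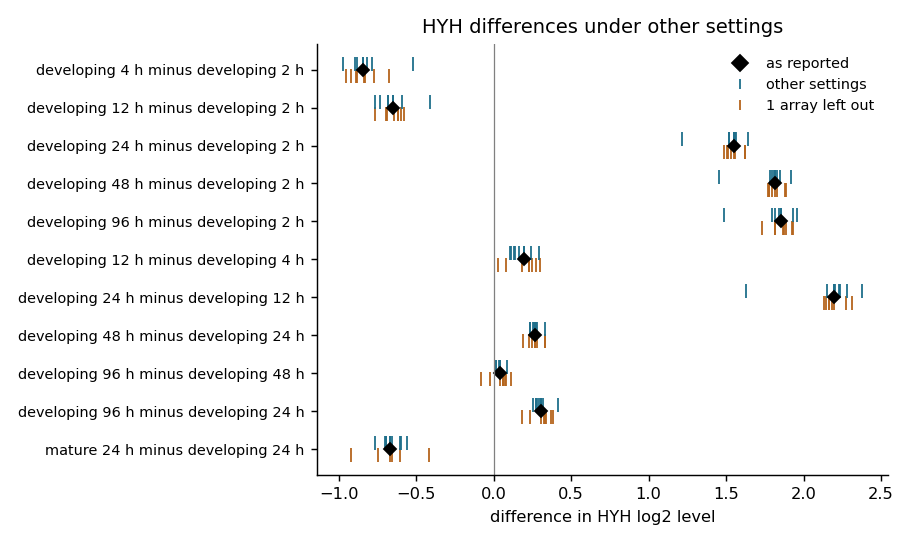
Difference in HYH log2 level for the 11 comparisons as reported (diamonds), under other processing settings (upper ticks) and with 1 array left out (lower ticks). Every called difference keeps its sign. The mature difference ranges from -0.92 to -0.42 with 1 array left out, and the rise from 12 to 24 h from 2.13 to 2.31.

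The genes around HYH in light signalling are thinly covered by the annotation. Of 111 genes listed for the HY5 pathway, its targets and the clock, 9 had a probe set that names only them, HYH among them. None of the 16 photoreceptor genes or the 17 BBX zinc finger genes had one, and HY5, COP1 and the SPA genes were not analysed here. FHL, a listed light-signalling gene, also had a probe set of its own, but its mean log2 level of 4.92 lay below the minimum. Among the tested genes the upstream side was represented by CUL4, the cullin of the COP1/SPA ligase, which was not called over the 6 times (limma adjusted p = 0.953). Its median change is therefore its own, -0.10 from 12 to 24 h, where the median of all probe sets was -0.03.

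Among the genes that HY5 and HYH are known to act on, flavonoid synthesis had 4 measured members of 16 listed: CHIL, DFR, UGT78D1 and UGT78D2. All 4 were called across the 6 times by the F-test, which called 62.4% of all probe sets. From 12 to 24 h 3 of 4 rose and none fell, with a median change of 0.93 beside -0.03 over all probe sets, of which 17.6% were called higher. From 2 to 12 h CHIL, UGT78D1 and DFR fell (median -0.53 beside 0.04), where 18.6% of all probe sets were called lower. From 2 to 4 h none of the 4 passed (median -0.27 beside -0.02), where 2.34% of all were called. At 24, 48 and 96 h CHIL, UGT78D1 and UGT78D2 were higher than at 2 h, with medians of 0.54, 0.68 and 0.69, where 10.1%, 11.2% and 19.1% of all probe sets were called higher. In mature leaves the same 3 genes were lower than in developing leaves at 24 h (median -1.73 beside -0.15), where 37.6% of all probe sets were called lower.

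CHIL, a chalcone isomerase-like protein that enhances flavonoid production, ranged from 192 to 252 at 2 h, from 91.4 to 170 at 12 h, from 329 to 398 at 24 h and from 443 to 594 at 96 h. Its 24 h arrays were all above its 12 h arrays. The rise was 1.40 ± 0.17 on the log2 scale (limma adjusted p = 2.60e-07), and the earlier fall from 2 to 12 h was -0.64 ± 0.17 (limma adjusted p = 0.00395). In mature leaves CHIL read 47.7 and 98.0, 2.33 lower on the log2 scale than in developing leaves at 24 h (-2.33 ± 0.21, limma adjusted p = 3.37e-10). HYH differed by -0.67 in the same comparison, and the difference between the changes of both genes was not tested.

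UGT78D1 and UGT78D2, the glycosyltransferases that add rhamnose and glucose to flavonols, also rose from 12 to 24 h. UGT78D1 ranged from 173 to 206 at 12 h and from 315 to 408 at 24 h, a rise of 0.90 ± 0.12 (limma adjusted p = 5.43e-07). UGT78D2 ranged from 103 to 178 at 12 h and from 247 to 312 at 24 h, a rise of 0.97 ± 0.16 (limma adjusted p = 1.82e-05). For both genes the 12 and 24 h arrays did not overlap. Their mature levels were lower than those of developing leaves at 24 h by -2.25 ± 0.14 and -1.22 ± 0.19 (limma adjusted p = 2.77e-13 and 4.73e-06). DFR, which makes the leucoanthocyanidin precursors of anthocyanin, was lower at 12 than at 2 h (-0.96 ± 0.28, limma adjusted p = 0.00732). Its change from 12 to 24 h was 0.68 ± 0.28 (limma adjusted p = 0.0567) and its mature difference was -0.49 (limma adjusted p = 0.223), and whether these differ from the changes of the other 3 genes was not tested. UF3GT, an anthocyanin glycosyltransferase added to the list after the annotation had been seen, was not called over the 6 times (limma adjusted p = 0.283). Across the 6 time means, the correlation with HYH was 0.984 for CHIL, 0.978 for UGT78D1 and 0.985 for UGT78D2. Over all 26 arrays, mature leaves included, it was 0.753, 0.569 and 0.788. These correlations mostly describe the step between low and high times that the genes share.

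**Figure D4:**
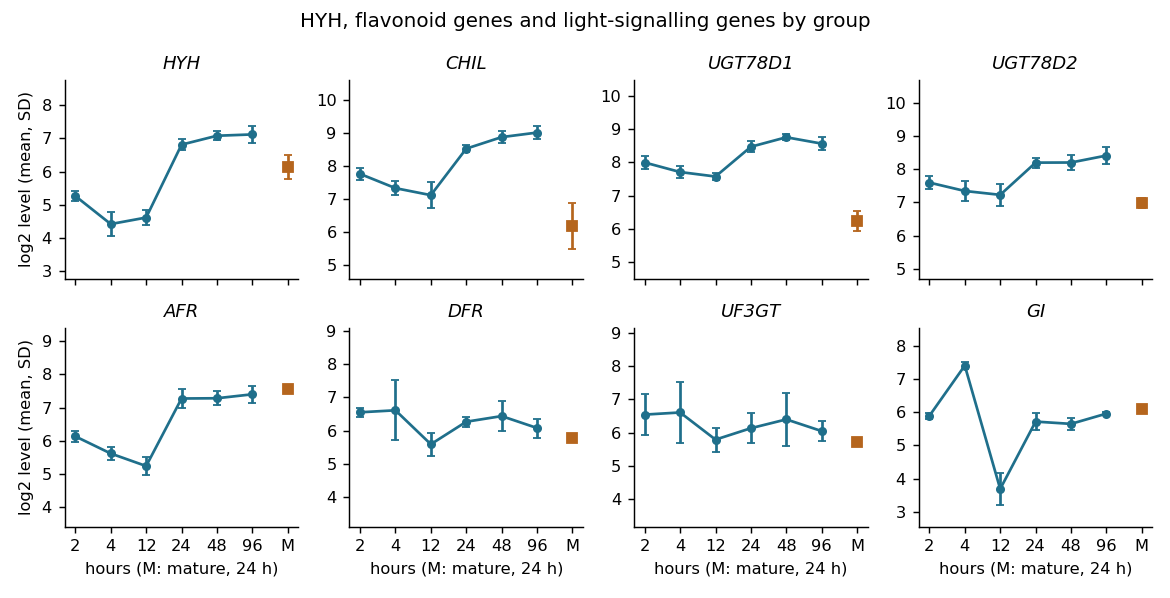
Mean log2 level with SD (4 arrays at each time, 2 for mature leaves, M) of HYH, 4 flavonoid genes of the list, UF3GT, AFR and GI. Every panel spans the same log2 range. HYH, CHIL, UGT78D1, UGT78D2 and AFR are higher at 24, 48 and 96 h than at 12 h, and in mature leaves the 3 flavonoid genes are low while AFR is at 7.58.

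A second list held 11 light-signalling genes that the annotation does name, and was put together after the annotation had been seen. Of these, 9 passed the minimum and 4 were called over the 6 times: AFR, GI, CSA1 and AT4G14480. The same test called 62.4% of all probe sets. AFR, an F-box protein of phytochrome A signalling, came closest to HYH, with a correlation of 0.911 over 26 arrays. It ranged from 58.4 to 77.3 at 2 h, from 38.7 to 53.7 at 4 h, from 26.7 to 44.8 at 12 h and from 119 to 188 at 24 h. Its rise from 12 to 24 h was 2.04 ± 0.15 (limma adjusted p = 3.38e-11) and its fall from 2 to 12 h was -0.89 ± 0.15 (limma adjusted p = 3.44e-05). The change from 2 to 4 h, -0.52 ± 0.15, did not pass (limma adjusted p = 0.0803). In mature leaves AFR read 186 and 187, and its difference from developing leaves was 0.30 ± 0.19 (limma adjusted p = 0.168), where that of HYH was -0.67.

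GI, a clock component that promotes flowering, ran differently from HYH in the first hours. It rose by 1.52 ± 0.16 from 2 to 4 h, when HYH fell, and fell by -3.72 ± 0.16 from 4 to 12 h. It then rose by 2.03 ± 0.16 from 12 to 24 h, and all 3 changes were called. CSA1, a protein of the disease resistance type linked to shade avoidance, rose from 2 to 12 h (0.80 ± 0.10) and fell from 12 to 24 h (-0.68 ± 0.10), opposite to HYH in both. AT4G14480, the kinase BLUS1 of the blue-light response of guard cells, was higher at 96 than at 2 h (0.51 ± 0.16, limma adjusted p = 0.0101) and higher in mature leaves (0.97 ± 0.19, limma adjusted p = 7.76e-05). CSN5B, a subunit of the COP9 signalosome, and LIP1, a small GTPase that acts on the clock, were not called over time (limma adjusted p = 0.811 and 0.944). XCT, which also acts on the clock, was not called over the 6 times (limma adjusted p = 0.123). In single comparisons XCT was lower at 12 than at 2 h (-0.49, limma adjusted p = 0.0198) and lower in mature leaves (-0.57, limma adjusted p = 0.0170). Of all probe sets, 18.6% and 37.6% were called lower in these comparisons. In mature leaves 4 of the 9 that passed the minimum were called, 2 higher and 2 lower, beside 61.7% of all probe sets. From 12 to 24 h 2 of the 9 rose and 1 fell, with a median of 0.14 beside -0.03 over all probe sets, of which 17.6% were called higher and 38.4% in either direction.

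Other bZIP genes were found by searching names and synonyms for bZIP or basic leucine zipper, likewise after the annotation had been seen. The search left out any bZIP gene named otherwise. It found 22 genes apart from HYH, and 10 passed the minimum. The other 12 were too dim to be tested. From 12 to 24 h none of the 10 was called higher and 1 fell, AT2G40620 (-0.65 ± 0.11, limma adjusted p = 3.95e-05). Of all probe sets 17.6% were called higher and 38.4% in either direction, and 10 genes are too few to set HYH apart from its class. From 2 to 4 h none of the 10 was called. Over the 6 times 6 of 10 were called by the F-test, near the background of 62.4%. BZIP60, a factor of the endoplasmic reticulum stress response, was higher in mature leaves by 1.10 ± 0.16, and 3 others of the 10 were lower there, where 61.7% of all probe sets were called and 37.6% were lower.

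The genes whose levels followed HYH most closely over the 26 arrays were ranked by Pearson correlation among 7364 genes with a probe set of their own. The closest 8 were AT5G47610 (0.951), AT5G15910 (0.947), AT1G19140 (0.946), AT3G15310 (0.946), ALDH11A3 (0.945), AT3G17130 (0.943), AT5G48570 (0.941) and AT5G20220 (0.940). A further 10 probe sets that name no gene or several genes correlated more strongly than the eighth of them. In all, 22 genes had a correlation over 0.9 and 15 had one under -0.9. Since the arrays fall into low and high times, this measure picks genes with the same step. With the group means removed, the correlation over the 24 developing arrays was between 0.09 and 0.71 for these 8.

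The 8 genes shared the rise from 12 to 24 h with HYH but differed in size. It was 3.54 ± 0.23 for AT5G48570, annotated as the FK506-binding protein ROF2, a chaperone induced by heat. It was 1.62 ± 0.20 for AT3G15310, 1.48 ± 0.14 for AT5G47610 and 1.25 ± 0.13 for AT3G17130. ALDH11A3, the cytosolic non-phosphorylating glyceraldehyde-3-phosphate dehydrogenase, rose by 0.69 ± 0.08, and AT1G19140 by 0.59 ± 0.08. Since these genes were picked by their likeness to HYH on these arrays, their rise is a description. The fall from 2 to 4 h passed the test in AT3G15310 alone of the 8 (-0.73 ± 0.20, limma adjusted p = 0.0436), beside 0.996% of all probe sets. In mature leaves 4 of the 8 were lower than in developing leaves at 24 h, with AT5G48570 at -1.06 ± 0.28 (limma adjusted p = 0.00209), and the other 4 were not called. In that comparison 37.6% of all probe sets were called lower.

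The most opposite genes were AT1G06760 (-0.962), FTSZ2-1 (-0.938), a plastid division protein, AT1G56300 (-0.937) and AT4G30660 (-0.934). With the group means removed, their correlations with HYH over the 24 developing arrays were -0.32, -0.21, 0.53 and -0.02, in that order. AT1G56300 rose by 2.53 ± 0.19 from 2 to 4 h and fell by -3.43 ± 0.19 from 12 to 24 h. AT4G30660 rose by 0.97 ± 0.15 and fell by -2.18 ± 0.15 over the same intervals. The changes of AT1G06760 and FTSZ2-1 from 12 to 24 h were -0.92 ± 0.09 and -0.73 ± 0.08. Which genes are closest depends on the measure: with the 6 time means in place of the arrays, AT1G19140 and AT3G15310 were the 2 of the 8 that stayed, and with Spearman's rank correlation over the arrays they were AT5G15910 and AT5G20220.

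**Figure D5:**
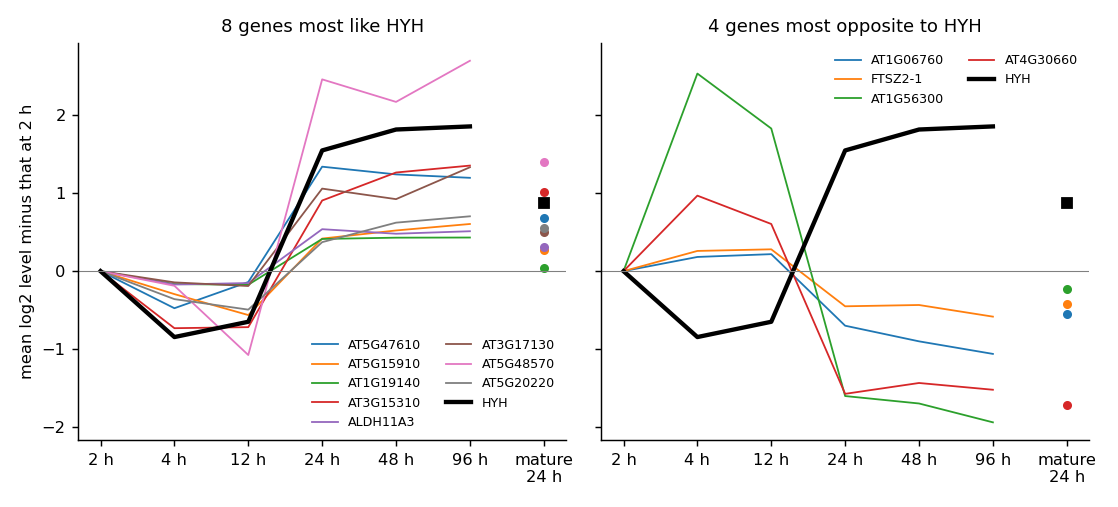
Mean log2 level minus that at 2 h for HYH (black) and, in colour, the 8 genes most like it (left) and the 4 most opposite to it (right), by time in developing leaves and in mature leaves at 24 h. The genes on the left rise between 12 and 24 h, from 0.59 for AT1G19140 to 3.54 for AT5G48570, and those on the right fall.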

How the data were processed

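The deposited values are MAS5 intensities, 1 column per array, made by the authors with MAS5 per the submitters' processing notes; its version, and any detection calls, are not given in the sources used here. Intensities were converted to log2 after adding a pseudocount of 4.35, and probe sets with a mean log2 level below the 40th percentile were left out. The 7 groups were fitted together in limma 3.58.1 (R 4.3.3) with an intensity trend, and p-values were adjusted by Benjamini-Hochberg over 13648 probe sets, with a threshold of 0.05. The script was tested on simulated data. Intervals are 95% intervals of that fit, and the number of arrays limits the precision.

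The platform annotation names 1 gene for 13513 probe sets, several for 503 and none for 8730. By Entrez ID 13436 of those with 1 gene matched RefSeq, used for names only. Of the 13648 tested, 6203 name several genes or none. Named genes are HYH, the measured members of the lists and markers, the 8 genes with the highest and the 4 with the lowest correlation with HYH. HYH and the lists were chosen with earlier results of these data known. Alternatives changed the pseudocount, filter, scaling, trend, array weights, covariates, replicate block and the arrays included.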

Additional observations from a re-analysis of the deposited data

Results flagged for a closer look

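Within each group of 4, the highest or lowest array was compared with the others for 36 genes, HYH included, by Dixon's ratio at its 95% critical value. It stood apart in 15 of 216 groups, and chance alone flags about 1 in 20. For HYH this was replicate 4 at 12 h, at 26.8 against 17.7 to 18.6 in the other arrays. Without it the HYH change from 12 to 24 h was 2.31 in place of 2.20.

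Replicate 1 at 24 h stood apart for 4 genes. It read 318 for AT5G47610 (others 190 to 198), 487 for AT5G48570 (others 203 to 235) and 222 for BZIP60 (others 149 to 156), and it was low for UGT78D2 at 247 (others 301 to 312). HYH read 124 on that array, the highest of its 4, and without it the HYH change from 12 to 24 h was 2.13.

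The remaining arrays were each apart for 1 gene. Among the genes most like HYH these were AT3G15310 at 50.0 on replicate 4 at 96 h (others 85.3 to 92.7), ALDH11A3 at 1168 on replicate 3 at 96 h (others 1280 to 1287), and AT5G20220 at 29.1 on replicate 1 at 12 h (others 26.0 to 26.4) and at 71.1 on replicate 2 at 48 h (others 60.7 to 61.4). Among light-signalling and clock genes, XCT read 35.5 on replicate 4 at 4 h (others 60.4 to 67.0), CSA1 60.7 on replicate 1 at 96 h (others 47.5 to 47.7), AT1G72390 91.0 on replicate 4 at 24 h (others 76.2 to 77.7) and AT5G52660 44.6 on replicate 4 at 48 h (others 57.4 to 58.6). Of the markers, RCA read 2484 on replicate 3 at 4 h (others 2715 to 2747) and LHCB4.1 2396 on replicate 2 at 2 h (others 2846 to 2923).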

How the results depend on the processing

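For 12 HYH results, 239 of 242 alternatives kept the direction and the side of the threshold. The change from 48 to 96 h, 0.04 and not called, turned to -0.084 without replicate 1 at 96 h and -0.022 without replicate 3 at 48 h, and ranged up to 0.11. The mature difference was -0.42 without mature replicate 1 and no longer called, where the lone mature array is assumed to vary like the other groups; with 1 array left out it ranged from -0.92 to -0.42. A pseudocount of 50% of the median shrank the change from 2 to 4 h to -0.52 and that from 2 to 12 h to -0.41. A filter at the 60th percentile removed HYH, so it gives no value. Of the 8 genes most like HYH, 2 stayed with 6 time means and 2 with Spearman's correlation. The promoter comparison was not run, because no promoter sequence was used here.

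Counts over all probe sets moved more. From 24 to 48 h the count, 43 as reported, was 28 with no filter, 16 with equal medians, 21 with no trend, 171 with array weights, 95 and 88 with the actin or GAPDH ratio as a covariate, 1 with only those groups in the fit, and 0 to 104 with 1 array left out. Array weights gave 567 for 2 to 4 h (319 as reported) and 1097 for 48 to 96 h (470 as reported, 216 to 430 with 1 array left out). Only those groups gave 1378 for 24 to 96 h (2354 as reported). The causes were not tested.

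Replicate numbers are shared between groups, but the labels do not say that a number marks a shared plant or batch. The correlation of deviations from the group means was -0.15 to 0.38 for same-numbered developing arrays (mean 0.08, over 0.1 in 23 of 60 pairs) and -0.03 on average for other numbers. Not every pair passed 0.1 and the labels state no pairing, so the main fit took the arrays as unpaired. That is no test of pairing, and 15 of 24 arrays correlated best with their own number, a hint from the data that it exists. The mean for other numbers largely follows from that for same numbers once group means are removed. The replicate block changed no HYH call; with it the change from 2 to 4 h had an adjusted p of 0.00164 (limma) and the mature difference was -0.77.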
